A study of Mus musculus with 2 samples.

Results

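The glycosyltransferase families that build the sugar chains of mucins and of the glycocalyx were examined in ureters of mouse embryos at E18.5 that lacked functional PPARG in the epithelium (Pparg-cKO). A gene was a member when its name in the array design began with Fut, St3gal, St8sia or Gcnt and a digit, or with St6gal, B3gnt, B3galt, B4galt, B4galnt or Galnt. This rule used names and no measured value, and it found 77 of 29923 genes, read by 108 of 39429 probes. Of the 77 genes, 67 had a probe well above background in at least 1 pool on both arrays and entered the tests, and 41 were bright, with a signal of 100 or more in 1 pool of each pair. In the deposited direction of the ratios, explained below, St8sia6 fell 4.55-fold, Gcnt1 was 2.02-fold and St6galnac2 1.76-fold lower, and Fut9 was 1.63-fold higher in the Pparg-cKO pools. The mean ratio of 50 of the 67 tested members was within 1.2-fold (74.6%, beside 86.1% of all genes tested).

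RNA of pooled, sex-sorted ureters from NMRI outbred embryos was compared on 2 two-colour arrays, with both pools of a pair on the same array. The Pparg-cKO pools had the genotype Pax2-cre/+; Pparg(fl/fl). The control pools were Pparg(fl/?), with the second allele not stated, and came from littermates without the cre transgene, so that both kinds of pool carried a floxed Pparg allele. Replicate 1 was a pair of female pools and replicate 2 a pair of male pools. Each sex was thus measured on 1 array with 1 dye orientation, and sex, dye orientation and array cannot be told apart. Per the study, Pax2-cre recombines in the nephric duct, in the epithelium of the ureter and in the renal collecting duct system, while the RNA came from whole ureters. The deletion leaves a shortened Pparg transcript.

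Sugar chains of mucins are built in the Golgi, one sugar at a time. A GALNT enzyme starts the chain by adding N-acetylgalactosamine to a serine or threonine of the protein, GCNT enzymes open a branch on it, and galactosyl and N-acetylglucosaminyl transferases lengthen the branches. Fucosyltransferases and sialyltransferases cap the ends, and their caps carry blood group and Lewis antigens and the negative charge of the glycocalyx. Many of these enzymes also act on the chains of N-glycoproteins and glycolipids. The luminal surface of the urothelium bears such a glycocalyx over its uroplakin plaques. The arrays read transcripts and not the sugars themselves.

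Signs below follow the deposited table, whose columns are titled Pparg-cKO vs control. The dye labels, as written, give the opposite direction on both arrays: over probes above background, the red over green ratio correlated with the deposited values at 0.918 (female array) and -0.944 (male array), although control RNA was labelled red on the female array and Pparg-cKO RNA on the male array. If the dye labels are right, every "higher" and "lower" below is exchanged, while all sizes and p-values stay. The study's own account, its tissue sections included, runs in the deposited direction. The probe for Pparg read 0.98 (female) and 0.96 (male) as a log2 ratio, that is higher in the Pparg-cKO pools in this direction; whether it lies in the deleted exons was not analysed here, so it is no check of the genotype. Processed signals, given below in units of the scanner software, were background-subtracted and scaled between dyes, and signals of different probes do not rank transcript levels, since probes differ in brightness. Between 66.2% and 77.3% of spots in a channel were well above background. The mean log2 ratio and its SD between the 2 arrays (n = 2) are given for each gene, and the log2 ratios were computed with an offset of 50 signal units, which pulls the ratios of dim probes towards 0.

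By the fold rule, which asks for at least 1.5-fold in the same direction on each array and a signal of at least 100 in the brighter pool, 4 of 41 bright members differed (9.76%), beside 1.84% of 14015 bright genes. Of these, 3 were lower (all genes: 1.05%) and 1 was higher (all genes: 0.792%). In limma, 1 of 67 tested members, St8sia6, had an adjusted p under 0.05 (1.49%), beside 0.751% of 22499 genes and 0.369% for calls on the lower side. At an unadjusted p under 0.05, 13 of 67 members were found (19.4%), beside 8.51% of all genes tested. The ratio had the same sign on both arrays for 39 of 67 members (58.2%), beside 52.8% of all genes. Higher on both were 21 members (31.3%; all genes: 26.6%) and lower on both 18 (26.9%; all genes: 26.2%). The median log2 ratio of the tested members was 0.03, beside 0.01 over all genes tested. Without the offset limma called 8 of 67 members (11.9%), beside 2.54% of all genes: besides St8sia6 these were Gcnt1, Gcnt3, Galnt6, Galnt14, St6galnac2, Fut2 and Fut9, each with the sign given here.

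**Figure D1:**
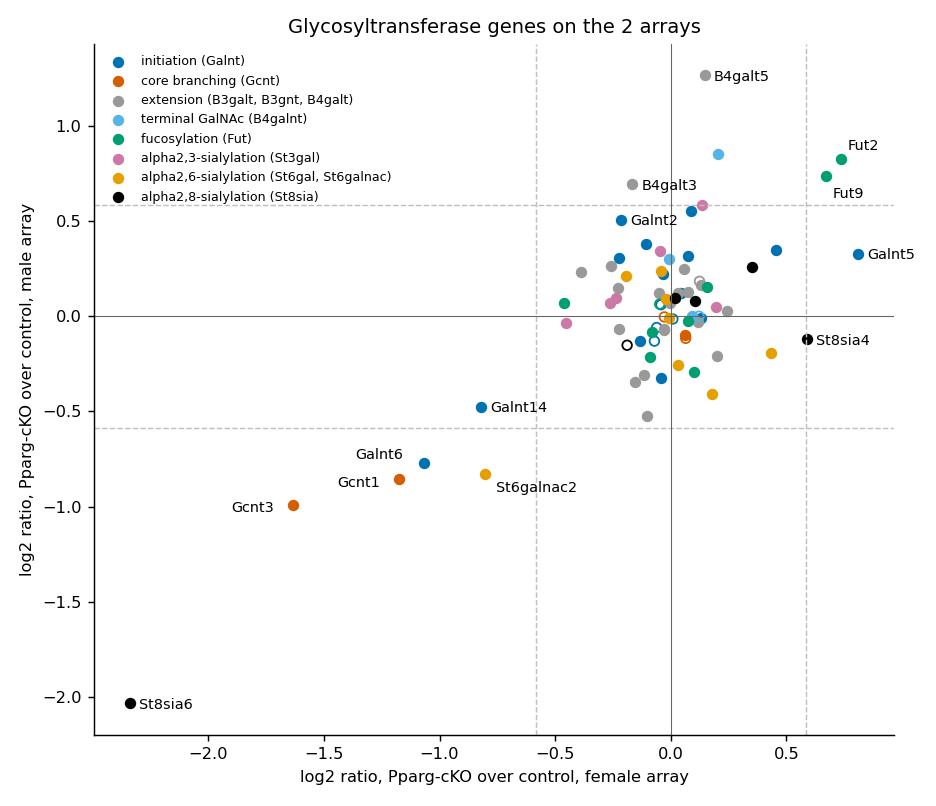
Log2 ratio of Pparg-cKO over control for each of the 77 members on the female array (horizontal axis) and the male array (vertical axis), coloured by enzymatic step; open circles are the 10 members not tested, and dashed lines mark 1.5-fold. St8sia6, Gcnt3, Gcnt1, Galnt6 and St6galnac2 lie past both lower lines, Fut2 and Fut9 past both upper lines, and B4galt5 is high on the male array (1.27) and near 0 on the female array (0.15).

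The starts of 4 members with lower signals are shown, those with the lowest ratios among members for which RefSeq promoter windows were given: the 250 bases before the annotated start, 5′ to 3′ on the strand of the gene, in GRCm38.p6. For Gcnt1 and Galnt6, which have several annotated starts, the 5′-most is shown. The windows are chr2:13793521-13793770 (minus strand) for St8sia6, chr15:100729377-100729626 (minus) for Galnt6, chr17:73710452-73710701 (minus) for Galnt14 and chr19:17372845-17373094 (minus) for Gcnt1. Capitals mark a GC box, the letters GGGCGG or their reverse complement CCGCCC.
St8sia6: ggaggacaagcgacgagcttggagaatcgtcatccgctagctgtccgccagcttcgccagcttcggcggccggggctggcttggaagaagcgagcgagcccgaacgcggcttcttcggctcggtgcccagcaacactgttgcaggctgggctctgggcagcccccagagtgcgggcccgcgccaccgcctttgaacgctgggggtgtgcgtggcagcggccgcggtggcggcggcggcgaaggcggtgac
Galnt6: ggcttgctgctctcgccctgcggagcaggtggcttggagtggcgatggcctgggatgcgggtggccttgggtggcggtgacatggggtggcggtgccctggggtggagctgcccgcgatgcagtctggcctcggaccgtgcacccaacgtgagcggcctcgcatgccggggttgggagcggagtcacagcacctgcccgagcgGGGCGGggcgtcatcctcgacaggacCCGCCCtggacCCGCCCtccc
Galnt14: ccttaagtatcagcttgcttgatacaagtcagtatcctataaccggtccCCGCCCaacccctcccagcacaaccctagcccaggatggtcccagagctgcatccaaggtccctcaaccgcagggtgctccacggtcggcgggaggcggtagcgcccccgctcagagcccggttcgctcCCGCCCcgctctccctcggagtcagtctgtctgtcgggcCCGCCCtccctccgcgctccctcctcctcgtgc
Gcnt1: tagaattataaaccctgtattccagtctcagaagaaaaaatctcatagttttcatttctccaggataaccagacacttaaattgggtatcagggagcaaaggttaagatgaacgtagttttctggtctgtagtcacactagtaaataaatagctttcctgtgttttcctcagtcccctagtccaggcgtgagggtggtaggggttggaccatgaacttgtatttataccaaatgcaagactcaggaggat
The St8sia6 window was rich in G and C (70.8%) and held 30 CpG pairs. The Galnt6 window (72.8%, 22 CpG pairs) and the Galnt14 window (66.4%, 19 CpG pairs) were like it, and each held 3 GC boxes. The window at the 5′-most start of Gcnt1 had 40.4% G and C, 2 CpG pairs and no GC box, against a median of 52.4% G and C over all windows. Composition also varied between the starts of 1 gene: the other windows of Gcnt1 had 55.6% and 51.6% G and C, with 10 and 2 CpG pairs, and the other window of Galnt6 had 59.6%, with 10 CpG pairs, none of them with a GC box. The nuclear receptor half-site AGGTCA or its reverse complement TGACCT was in none of these 4 windows, nor in the other given windows of Gcnt1 and Galnt6. It was in 14% of all 32851 windows and in 6 of 76 windows of members (7.89%). The direct repeat of that half-site with 1 spacer base, which contains the half-site, was in 11 windows of all and in none of the members'. A GC box was in 32.7% of all windows and in 38 of 76 windows of members. Windows were given for 56 of the 77 members, and a missing match says only that these letters are not in the 250 bases.

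Alpha2,8-sialyltransferases add a sialic acid to another sialic acid. St8sia6, which does so mainly on O-glycans, was the member with the largest change. Its processed signal was 610 in the control and 108 in the Pparg-cKO pool of the female pair, and 514 and 112 in the male pair. Both Pparg-cKO pools were far below both control pools, and the pools of 1 genotype lay close together. The log2 ratio was -2.34 in the female pair and -2.03 in the male pair, and the mean was -2.19 ± 0.21 (SD, n = 2; 95% confidence interval -2.50 to -1.87; adjusted p = 0.00728 in limma). It was read by 1 probe, on chromosome 2 at 13576941 to 13577000 (mm9). Computed from the deposited table, its mean log2 ratio was -2.34 and its adjusted p 0.533, a table on which limma called no gene at all; over all alternatives that allow a test the adjusted p ranged from 5.12e-06 to 0.533. The polysialic acid synthases, which act on NCAM1, did not follow it. St8sia4 had a log2 ratio of 0.59 in the female and -0.12 in the male pair, so that its arrays disagreed in sign, and St8sia2, a dim probe at 22.2 to 25.7 signal units, had 0.10 and 0.08. The ganglioside enzymes St8sia1 (mean log2 ratio 0.06 ± 0.06) and St8sia5 (0.31 ± 0.06) were dim too, and St8sia3 was not tested. Apart from St8sia6, none of the 5 tested genes of this group passed the fold rule.

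Alpha2,6-sialyltransferases put a sialic acid on galactose of N-glycans (ST6GAL) or on N-acetylgalactosamine of O-glycans and on gangliosides (ST6GALNAC). St6galnac2, which sialylates the first sugar of O-glycans, was lower on both arrays. Its signal was 905 in the control and 501 in the Pparg-cKO pool of the female pair, and 1099 and 610 in the male pair. The control pools were above the Pparg-cKO pools on both arrays, and the 2 arrays gave nearly the same ratio: -0.80 and -0.83, with a mean of -0.82 ± 0.02 (SD, n = 2; adjusted p = 0.0590 in limma). Its probe lies on chromosome 11, at 116538040 to 116538094 (mm9). The other 7 genes of the group, all tested, had mean log2 ratios between -0.12 and 0.12. Among them St6galnac1, the enzyme of the sialyl-Tn antigen, read 0.18 in the female and -0.41 in the male pair, and St6gal1, which caps lactosamine of N-glycans, read -0.04 and 0.24. St6galnac4, which acts on already sialylated O-glycans, read -0.01 on both arrays. St6galnac2 was thus the one gene of 8 with the same sign and a change over 1.2-fold on both arrays.

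Alpha2,3-sialyltransferases cap galactose, and 6 of 6 were tested. None passed the fold rule, and their mean log2 ratios ran from -0.24 (St3gal4) to 0.36 (St3gal1). St3gal1, which caps the core 1 chain of O-glycans, had signals of 758 (control) and 795 (Pparg-cKO) in the female pair and of 877 and 1305 in the male pair. At this brightest probe it was level between the female pools and higher in the male Pparg-cKO pool, with log2 ratios of 0.14 and 0.59 (adjusted p = 0.599 in limma). Its second probe, at 234 to 276 signal units, read 0.17 and 0.06, so that the male difference rests on 1 probe. St3gal4, which caps lactosamine ends, read -0.46 and -0.03 at signals of 30.0 to 49.7. St3gal2, St3gal3, St3gal5 and St3gal6 had mean log2 ratios from -0.10 to 0.15, St3gal5 being the GM3 ganglioside synthase.

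Core branching was the step with the largest median change, over few genes: of 5 Gcnt genes 3 were tested, and their median log2 ratio was -1.02. Gcnt1 encodes the core 2 enzyme that most cells use for O-glycans. Its signal was 645 in the control and 296 in the Pparg-cKO pool of the female pair, and 754 and 380 in the male pair. The Pparg-cKO pools were at about the same distance below their controls on both arrays, with log2 ratios of -1.18 and -0.86 and a mean of -1.02 ± 0.23 (SD, n = 2; adjusted p = 0.0566 in limma). Gcnt3, the mucin-type enzyme that makes core 2 and core 4 branches, was lower too, at a dim probe. Its signal was 107 in the control and 21.1 in the Pparg-cKO pool of the female pair, and 79.9 and 32.1 in the male pair. It was below the signal minimum on the male array only, and so was outside the fold rule, at log2 ratios of -1.63 and -0.99 (mean -1.31 ± 0.45, 2.48-fold, adjusted p = 0.0685 in limma). Without the offset the mean log2 ratio of Gcnt3 was -1.60 (adjusted p = 0.000477 in limma), and with scanner-processed signals -1.83 (adjusted p = 0.121). Median centring gave -1.25 (adjusted p = 0.0404), and single-channel levels an adjusted p of 0.0421. In the other alternatives that allow a test the adjusted p ran from 0.0672 to 0.533. The I-branching enzyme Gcnt2 was level, at 157 and 167 in the female pair and 185 and 176 in the male pair (mean log2 ratio -0.02 ± 0.11). Gcnt4 and Gcnt7 were not tested, Gcnt4 being well above background in no pool. The probe of Gcnt1 lies on chromosome 19, at 17400787 to 17400846, and that of Gcnt3 on chromosome 9, at 69879436 to 69879495 (mm9).

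**Figure D2:**
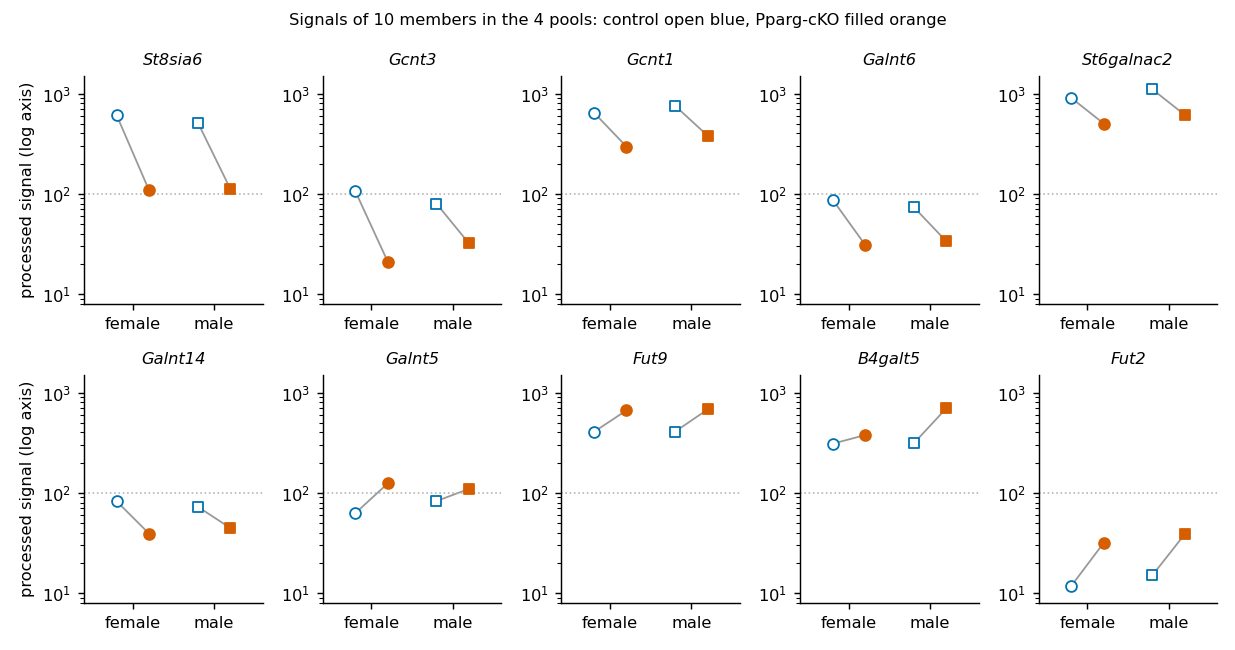
Processed signal (log axis, scanner units) of the 10 members with the largest mean change in each of the 4 pools, joined within an array; circles are the female and squares the male pools, control open and Pparg-cKO filled, and the dotted line is the signal minimum of 100. For St8sia6 the control pools read 610 and 514 and the Pparg-cKO pools 108 and 112, while Galnt6, Galnt14 and Fut2 stay below 100 in all 4 pools.

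Among the 18 enzymes that initiate mucin-type chains, 14 were tested, 11 were bright and none passed the fold rule. The group was spread to both sides, 5 genes being higher and 4 lower on both arrays, with a median log2 ratio of 0.09 (-0.04 in the female and 0.26 in the male pair). Galnt6, one of the enzymes that take unmodified peptides, stood lowest. Its signals were 87.6 (control) and 31.1 (Pparg-cKO) in the female pair and 73.7 and 33.7 in the male pair, both control pools above both Pparg-cKO pools but all below the minimum of 100. The log2 ratios were -1.07 and -0.77 (mean -0.92 ± 0.21, 1.89-fold, adjusted p = 0.0681 in limma). Galnt14 was next, with signals of 82.6 and 39.2 in the female and 72.7 and 44.6 in the male pair. Its ratio was past 1.5-fold on the female array (-0.82) and not on the male array (-0.48), with an adjusted p of 0.188 in limma.

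On the other side stood Galnt5, whose signal was 62.6 in the control and 124 in the Pparg-cKO pool of the female pair and 82.8 and 109 in the male pair. It was higher in both Pparg-cKO pools, past 1.5-fold on the female array alone (log2 ratios 0.81 and 0.33, adjusted p = 0.345 in limma). Galnt3, which glycosylates FGF23 among others, read 0.45 and 0.35. Galnt2, a broadly expressed initiator, read 1536 and 1334 in the female pair and 1598 and 2151 in the male pair, lower in 1 and higher in the other, with log2 ratios of -0.21 and 0.51. The other broadly expressed initiator, Galnt1, had a mean log2 ratio of -0.18 ± 0.20. The remaining tested members of the group (Galnt4, Galnt7, Galnt10, Galnt11, Galnt12, Galnt15, Galnt16 and Galnt18) had means from -0.13 (Galnt11) to 0.32 (Galnt10), and Galnt9, Galnt13, Galntl5 and Galntl6 were not tested.

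**Figure D3:**
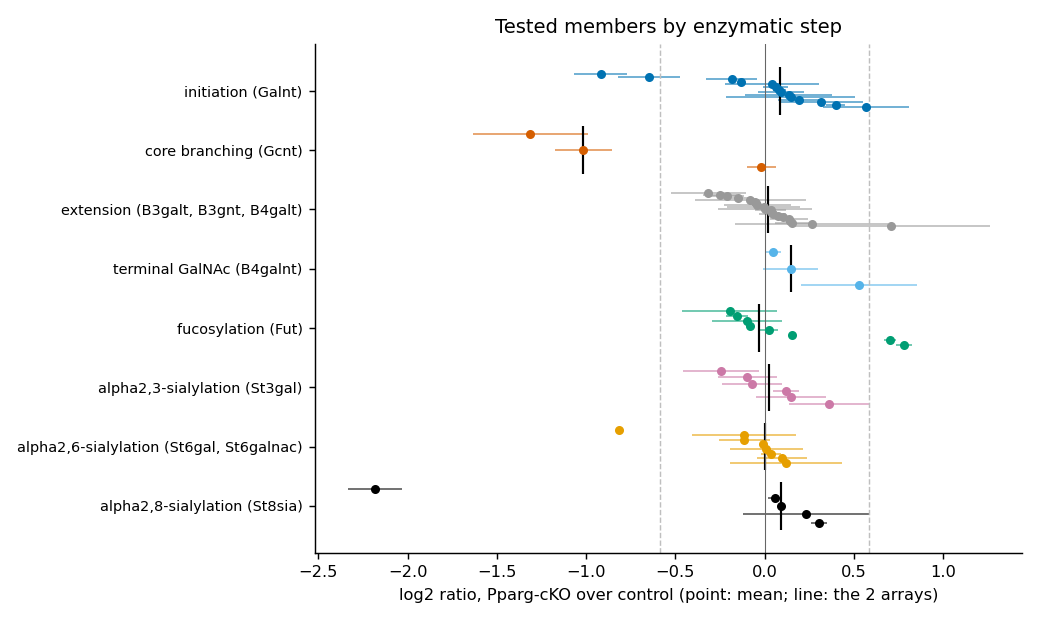
Mean log2 ratio of Pparg-cKO over control for each tested member (points), with the span between the 2 arrays (horizontal lines), grouped by enzymatic step; the black tick is the median of the group and dashed lines mark 1.5-fold. Core branching has a median of -1.02 over 3 genes, while the medians of the other groups lie between -0.03 and 0.15.

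The enzymes that lengthen chains with galactose and N-acetylglucosamine were the largest group, with 21 genes, 20 tested and 12 bright. None passed the fold rule, and 6 were higher and 6 lower on both arrays (median log2 ratio 0.02). B4galt5, which makes lactosylceramide, read 309 (control) and 376 (Pparg-cKO) in the female pair and 312 and 696 in the male pair. The control pools were equal and the Pparg-cKO pools were not, and the log2 ratios of 0.15 and 1.27 gave a mean of 0.71 ± 0.79 (adjusted p = 0.581 in limma). Its partner in that reaction, B4galt6, had a mean of -0.25 ± 0.13. The brightest probe of B4galt3 read 0.69 in the male and -0.17 in the female pair. Its second probe, at 189 to 320 signal units, read 0.20 in the male and 0.13 in the female pair. B4galt1, the main lactosamine galactosyltransferase, read 1345 and 1474 in the female pair and 1446 and 1527 in the male pair, a mean log2 ratio of 0.15 ± 0.02. Its second probe, at 187 to 218 signal units, had the other sign, at -0.19 in the female and -0.12 in the male pair.

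The lowest mean of the group was that of B3gnt5, which starts lacto-series glycolipids, at -0.31 ± 0.30. Its second probe gave -0.37 in the female and -0.45 in the male pair. B3gnt2, which makes poly-N-acetyllactosamine, had a mean of 0.14 ± 0.15. B4galt7 and B3galt6, which build the linker of glycosaminoglycan chains, had means of 0.15 ± 0.13 and 0.00 ± 0.29. B3gnt3, B3gnt4 and B3gnt6, which act on mucin-type chains or lactosamine, were dim, with signals under 10, and B3gnt7 was not tested. The 3 tested B4galnt genes, which add a terminal N-acetylgalactosamine, were all dim as well. B4galnt1, the GM2 ganglioside synthase, read 25.5 and 32.7 in the female pair and 25.3 and 59.5 in the male pair (log2 ratios 0.20 and 0.86, adjusted p = 0.504 in limma). B4galnt2, the enzyme of the Sda antigen, and B4galnt4 had means of 0.05 ± 0.06 and 0.15 ± 0.22, and B4galnt3 was well above background in no pool.

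Among the fucosyltransferases, Fut9 and Fut2 were higher in the Pparg-cKO pools of both pairs. Fut9, which makes the Lewis X end, read 405 in the control and 663 in the Pparg-cKO pool of the female pair and 408 and 678 in the male pair. Both Pparg-cKO pools were above both control pools, and the arrays were close: log2 ratios of 0.67 and 0.73, mean 0.70 ± 0.05 (SD, n = 2; adjusted p = 0.0870 in limma). Fut2, which makes the H antigen of secreted and epithelial glycans, had a still larger mean ratio at a dim probe. Its signal was 11.8 in the control and 31.8 in the Pparg-cKO pool of the female pair and 15.1 and 39.0 in the male pair, the Pparg-cKO pools again above both controls. The log2 ratios were 0.73 and 0.83 (mean 0.78 ± 0.06, 1.72-fold, adjusted p = 0.0685 in limma), and the mean was 1.41 with scanner-processed signals (adjusted p = 0.0460) and 1.13 without the offset (adjusted p = 0.00104), the adjusted p being from 0.0507 to 0.533 in the other alternatives. The signals are below the minimum of 100, so that Fut2 is outside the fold rule. Fut1, the other H enzyme, was at 3.73 to 7.61 signal units and well above background in 2 of the 4 pools, so that its ratio is not given.

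None of the remaining fucosyltransferases passed the fold rule. Fut4, a second Lewis X enzyme, read -0.46 and 0.07, and Fut8, which adds the core fucose of N-glycans, -0.09 and -0.21. The probe of Fut7, which makes sialyl Lewis X on leukocytes, read 2.73 to 3.44 signal units and was well above background in 2 of the 4 pools, so that its ratio is not given. Fut10 and Fut11 had means of -0.10 ± 0.28 and 0.02 ± 0.07, and the pseudogene Fut4-ps1 was well above background in no pool. The probe of Fut9 lies on chromosome 4, at 25536646 to 25536705, and that of Fut2 on chromosome 7, at 52904672 to 52904731 (mm9).

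Of the members, 48 had 1 probe, 27 had 2 and 2 had 3, and the brightest probe stood for the gene. For 25 members more than 1 probe was well above background, and the signs of the means were opposite in 3 of them: B4galt1, Fut9 and Gcnt2. All 3 probes of Gcnt1 were lower in both pairs, at -1.18 and -0.86, -0.62 and -0.49, and -0.87 and -0.52 for the female and the male pair. Both probes of Galnt6 were lower too, the second at -0.45 and -0.26. For Fut9 the second probe read 0.33 and 0.54, and the last, at 3.68 to 5.39 signal units, read -0.05 and 0.03. For B4galt5 the second probe, at 3.12 to 5.17 signal units, read -0.05 and 0.15. With the median over all probes in place of the brightest, 2 members passed the fold rule, St6galnac2 and St8sia6, while Gcnt1 (mean log2 ratio -0.70) and Fut9 (0.43) did not.

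**Figure D4:**
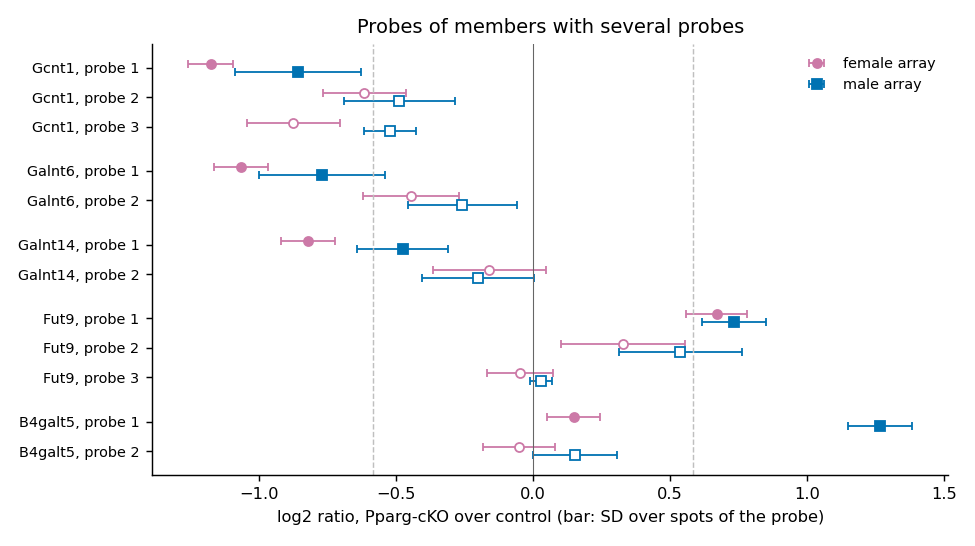
Log2 ratio of Pparg-cKO over control for every probe of 5 members with several probes, on the female (circles) and the male array (squares); bars are the SD over the spots of a probe, filled symbols the brightest probe, which stands for the gene, and dashed lines 1.5-fold. All probes of Gcnt1, Galnt6 and Galnt14 lie below 0 on both arrays, while the dim probe 3 of Fut9 and the second of B4galt5 lie near 0.

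The 2 arrays put partly different members past 1.5-fold. On the female array alone 7 of 42 bright members passed (all genes: 3.15%) and on the male array alone 7 of 42 (all genes: 8.7%). The 4 members past the fold rule were in both sets. Gcnt3, Galnt5 and St8sia4 were added by the female array, and B4galt3, B4galt5 and St3gal1 by the male array, where all 3 were higher. On that array the second probes of B4galt3, B4galt5 and St3gal1 read 0.20, 0.15 and 0.06 as log2 ratios, under 1.5-fold. Over all genes the male array put 6.7% of genes on the higher and 2% on the lower side, and the female array 1.25% and 1.9%. No member moved 1.2-fold or more one way in the female and the other way in the male pair, although 3 to 7 members did so in 4 of the alternatives. With the signal minimum at 50 the fold rule found 6 members, Gcnt3 and Galnt6 in addition (12.5% of 48, beside 1.93% of all genes), and without a minimum it found 7, Fut2 in addition (9.09% of 77, beside 1.2%).

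The 10 members that were not tested were Galnt9, Galnt13, Galntl5, Galntl6, Gcnt4, Gcnt7, B3gnt7, B4galnt3, St8sia3 and Fut4-ps1, of which 6 were well above background in no pool. Signals of these 10 ran from 0.608 to 6.02. Whether such a gene is absent from the ureter cannot be said from a dim probe.

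Companion genes were read from lists of mucin and glycocalyx core proteins, other glycosyltransferases, donor sugar supply, sulphation, removal and sialic acid O-acetylation. The list of other glycosyltransferases is wider than the chains described above, and also holds Ugt8a, Ogt, Pomt1 and Pomt2. Of 87 genes listed, 85 were on the arrays, 77 were tested and 56 were bright, and 1 passed the fold rule (all genes: 1.84%). This was Ugt8a, the galactosylceramide synthase, with signals of 67.4 (control) and 186 (Pparg-cKO) in the female and 99.1 and 158 in the male pair, higher in both Pparg-cKO pools (log2 ratios 1.22 and 0.63, adjusted p = 0.151 in limma). None of the 77 was called in limma (all genes: 0.751%), and 7 had an unadjusted p under 0.05 (all genes: 8.51%). Their median log2 ratio was 0.05.

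Among the core proteins, 10 were higher and 3 lower on both arrays of 19 tested (all genes: 26.6% and 26.2%). Muc20 read 74.8 and 112 in the female and 76.3 and 124 in the male pair, a mean log2 ratio of 0.55 ± 0.10, and Podxl had 0.29 ± 0.13. Muc1 and Muc13, epithelial membrane mucins, had means of -0.09 ± 0.02 and -0.06 ± 0.07 at signals under 20, and Ncam1, the carrier of polysialic acid, read 0.01 and 0.54. C1galt1, which makes the core 1 chain on which GCNT1 and ST6GALNAC2 act, read 385 and 341 in the female pair and 508 and 265 in the male pair, with log2 ratios of -0.16 and -0.93. Its chaperone C1galt1c1 read -0.17 and -0.03. Of 15 genes of donor sugar supply none passed the fold rule, and Gne, which starts sialic acid synthesis, had the lowest mean, -0.26 ± 0.14. Cmas and Slc35a1, which activate sialic acid and carry it into the Golgi, had means of -0.15 ± 0.19 and 0.00 ± 0.08. The 9 tested sulphotransferases ran from -0.33 (Chst2) to 0.53 (Chst5). Among the enzymes of removal, the fucosidase Fuca2 had the lowest mean, -0.25.

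**Figure D5:**
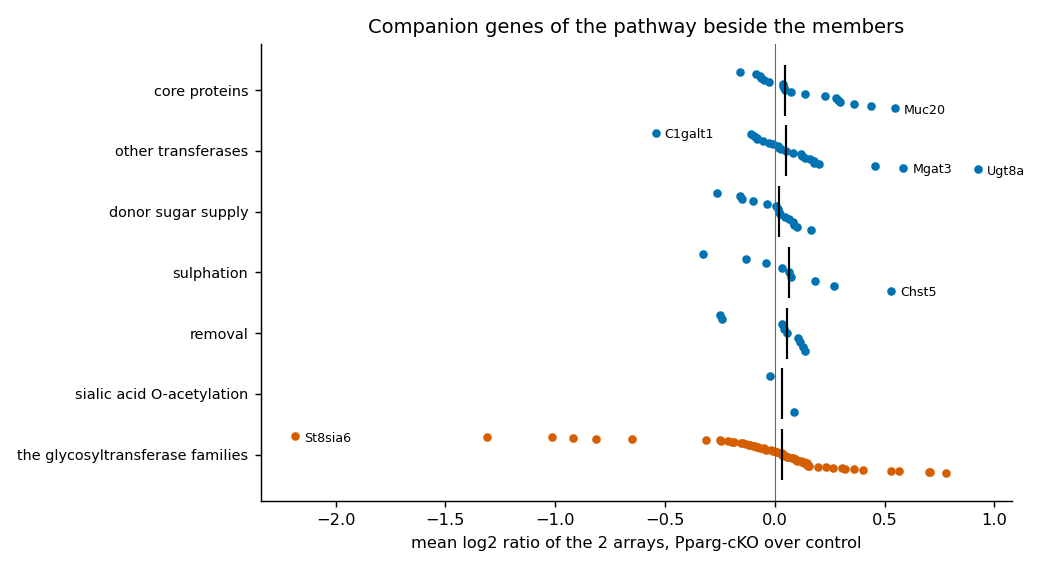
Mean log2 ratio of Pparg-cKO over control for the tested genes of 6 companion lists (blue) and for the 67 tested members (orange), with the median of each list as a black tick. Every companion gene lies between -0.54 (C1galt1) and 0.93 (Ugt8a), and the members reach from -2.19 to 0.78.

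Markers of the cells in the tissue moved as well. In whole ureters, fewer cells of a type and less RNA per cell cannot be told apart. All 7 markers of superficial urothelial cells were lower on both arrays, 5 past the fold rule and 2, Krt20 and Upk3b, called in limma. Krt20 read 1557 and 168 in the female and 1407 and 144 in the male pair, a mean log2 ratio of -3.09 ± 0.08 (adjusted p = 0.00620 in limma), and the median of the list was -1.02. The summed signal of the list was 82356 in the control and 47318 in the Pparg-cKO pool of the female pair and 71505 and 52109 in the male pair. Among 5 basal markers, Krt14 and Krt15 were called in limma as higher and Krt17 was higher on both arrays (mean log2 ratio 0.84), while Trp63 read -0.53 and -0.44 and Krt5 -0.86 in the female and 0.35 in the male pair. The 8 general epithelial markers were mixed, with 4 higher and 2 lower on both arrays, and their summed signal was 49501 and 42287 in the female and 42661 and 56724 in the male pair. Only Krt19 of these passed the fold rule, as higher (log2 ratios 0.71 and 1.29), and none was called in limma. The part of the cell make-up in the values of St8sia6, Gcnt1, St6galnac2 and Fut9 was not tested.

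Markers of other tissues were read in the same pools. All 3 lamina propria markers were lower on both arrays (median log2 ratio -0.39), and so were 3 of 6 smooth muscle markers (median -0.18), 4 of 8 nerve and Schwann cell markers (-0.14) and 5 of 6 skeletal muscle markers (-0.30). For the lamina propria these were Aldh1a2, Ptch1 and Hhip. The study also uses Ptch1 and Hhip as direct targets of Sonic hedgehog signalling and Aldh1a2 as an effector gene of it. Fewer such cells and less of this signalling cannot be told apart here. Of 6 endothelial markers 4 were higher on both arrays (median 0.13), and of 6 blood markers 3 (median 0.15). Of 3 tested adipose markers (median -0.12), Adipoq read -1.73 in the female and -0.25 in the male pair, Fabp4 -0.30 and 0.06, and Ucp1 0.06 and 0.12. The summed signal of 5 liver markers was 1497 and 1401 in the female and 3434 and 1698 in the male pair, lower in the male Pparg-cKO pool, and that of the skeletal muscle markers 7857 and 7326 and then 9044 and 6332. Among the latter Myh8 read -0.61 and -0.50, and Ckm, which the study also uses as a marker of ureteric smooth muscle, -0.50 and -0.95. Of 4 tested kidney markers, Fxyd4 was called in limma as higher (mean log2 ratio 2.38, adjusted p = 0.00620). Aqp2 (-0.12 and -0.17), Slc34a1 (-0.06 and -0.22) and Lrp2 (-0.13 and -0.89) were lower on both arrays, while Umod and Slc12a1 were well above background in no pool. The summed signal of the kidney list was 225 (control) and 671 (Pparg-cKO) in the female and 279 and 688 in the male pair. The part of these tissues in the members' values was not tested.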

How the data were processed

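RNA was amplified in 1 round of T7 transcription, labelled with AlexaFluor555 or AlexaFluor647 and hybridised by the study to 2 two-colour arrays. Per the file headers, the deposited scanner files held spot intensity (mean signal, local median background and a processed signal), written with Agilent Feature Extraction 10.7.3.1 per the submitters' processing notes. In the authors' deposited table each probe had a signed fold (ratio) for each array, falls being negative. Each of 39429 probes lay on 4 spots; outlier flags removed 2.87% and 3.24% of spots. Signals were corrected with normexp (offset 50) and normalised by loess within arrays in limma 3.58.1 (R 4.3.3); spots were averaged, and the brightest probe stood for a gene. The mean log2 ratio was tested with lmFit and eBayes, two-sided, and p-values were adjusted by Benjamini-Hochberg over 22499 genes; 1 residual and 4 prior degrees of freedom bore the spread, and the test was tested on simulated data. Both arrays lay on the same slide. With 2 arrays of pooled embryos, p-values measure only the spread between these arrays, and their number limits the precision. Gene names and probe positions (mm9) are those of the array design; 73 of 77 member accessions matched RefSeq, with the same symbol. Named members were those past the fold rule or called, the 10 largest mean changes, the brightest and dimmest of each step, members near the threshold, in opposite directions or with probes over 0.5 apart, and companion genes past a rule; other members are added as values of their group. Members, lists and tests were chosen with earlier results of these data known. Alternatives were other background corrections and normalisations, the deposited table, all probes, other thresholds, single-channel levels and each array alone.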

Additional observations from a re-analysis of the deposited data

Results flagged for a closer look

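Fuk, the fucose kinase of the donor sugar list, changed in opposite directions on the 2 arrays by at least 1.2-fold each. Its signal was 448 (control) and 382 (Pparg-cKO) in the female pair and 466 and 621 in the male pair, log2 ratios of -0.29 and 0.46, which differ by 0.75. The difference was not tested, since each sex was on 1 array with 1 dye orientation.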

How the results depend on the processing

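Of the alternatives that kept both arrays, 4 members stayed past the fold rule without the normexp offset, with scanner-processed signals, with the deposited table and with single-channel levels, and these 4 were the same genes. The count was 3 with median centring (without Gcnt1), 2 with the median over all probes (2 lower, 0 higher), 1 at a 2-fold threshold (1 lower, 0 higher), 6 with a signal minimum of 50 (5 lower) and 7 with no filter on dim probes (5 lower, 2 higher). Each array alone gave 7 members (3 to 4 lower, 3 to 4 higher). The share of all genes past the fold rule was counted only for the main setting, the other signal minima and each array alone, as given above. In limma, 8 members were called without the offset (571 of all genes, against 169), 2 with scanner-processed signals (137), 2 with median centring (173) and 0 with the deposited table (0). The ratio within an array pairs the pools; without that pairing, in single-channel levels with no replicate block, 4 members were called (Gcnt1, Gcnt3, St6galnac2 and St8sia6; 207 of all genes). The median log2 ratio of the members was 0.10 with median centring, where that of all genes was 0.04, and ranged from -0.01 to 0.07 over the single arrays. Members changed in opposite directions numbered 4 without the offset, 4 with scanner-processed signals, 7 with median centring and 3 with the deposited table, against 0. For the companion genes these alternatives were chosen after seeing the data: 6 passed on the male array alone and 1 on the female array alone, and 1, Ugt8a, was called in limma without the offset and 1 with median centring. None of the 10 members with the largest mean change had another sign under these alternatives. The cause of these differences was not tested. Signal over background limits Gcnt3, Galnt6, Galnt14 and Fut2, whose ratios depend on the offset.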
